A study of Mus musculus with 8 samples.

Results

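The first day of the liver's response to TCPOBOP was read in control mice, by setting the array of day 1 against the array of day 0. These are 2 of the 8 arrays of the study, chosen by their labelled arm and day and not by any signal, and all 45101 probe sets of both were read. The study asks how the liver grows after this chemical mitogen when MET is deleted and EGFR inhibited, and the control arm received neither treatment. All mice carried Metff/ff:ERCre+/+, that is, floxed alleles of the Met gene together with a Cre recombinase that needs tamoxifen to act. Control mice received injections of corn oil alone on 5 days. The labels give neither the promoter that drives Cre nor the age, sex and number of the mice.

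The day 1 group then received TCPOBOP at 3 mg/kg by gavage, at least 5 days after the last injection. The day 0 group carries the label of day 0 after TCPOBOP, and whether it received the compound or its solvent, and at what hour it was killed, is not given. The other arm, called MET KO + EGFRi, received tamoxifen (100 µl at 10 mg/ml) on the same schedule to delete Met in the whole body. It also ate canertinib, an inhibitor of EGFR and its relatives, with an aim of 80 mg/kg per day from 1 day ahead of TCPOBOP. RNA of several livers was pooled for each array, so each group has 1 array and no replicate. No error can be given for a difference between day 1 and day 0, and no p-value was computed for it.

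TCPOBOP is a synthetic compound that binds and activates the mouse form of CAR, the constitutive androstane receptor encoded by Nr1i3. Active CAR enters the hepatocyte nucleus and switches on enzymes and carriers that oxidise, conjugate and export foreign compounds. In rodents it also drives hepatocytes into the cell cycle without injury to the liver, so that the organ grows by direct hyperplasia.

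Values are MAS5 signals, a linear brightness per probe set. The median signal over all probe sets was 238 on day 1 and 251 on day 0, and the ratio of 3' to 5' actin probe sets, a sign of RNA integrity, was 1.9 and 1.58. The upper tail differed more, with a 99.9th percentile of 40935 on day 1 and 31239 on day 0, and day 0 was the lowest of the 8 arrays in this respect. Of 9 hepatocyte markers, 8 had higher signals on day 1, among them albumin (Alb) with 50479 on day 1 and 37254 on day 0. The markers fit a liver sample on both days. The shift in these abundant RNAs depends on how arrays are scaled, because the median log2 difference of the 9 markers was 0.37 as deposited and -0.027 after quantile normalization.

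Differences are given as log2 of day 1 over day 0 after adding 71, the lower quartile of all signals, to each signal, which makes the change of weak genes smaller. A gene was read from its strongest probe set, and 12112 genes passed the filter on low signals. On day 1, 312 of them (2.58%) had gained at least 2-fold relative to day 0 and 275 (2.27%) had lost as much, together 587 or 4.85%. On the same scale the difference reached 4-fold for 40 of the higher and 24 of the lower genes. Most genes moved little, with a median difference of -0.03, a median absolute difference of 0.26 and 46.5% of genes higher on day 1. These values, with 2.58% and 2.27%, are what each gene list below is set beside, and a list was never tested against other genes. Gene lists of known pathways hold 5.96% of the 12112 genes, 27.9% of the higher genes and 11.6% of the lower genes. The lists were chosen with earlier results of these data known, so these shares describe the lists and are no test of enrichment.

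**Figure D1:**
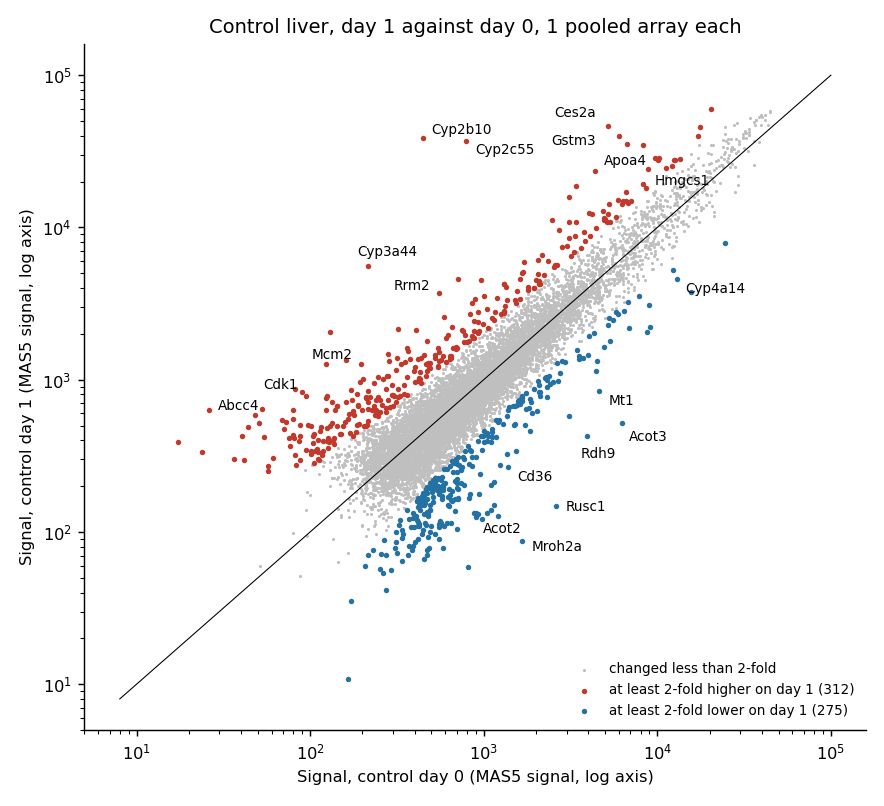
Signals of 12112 genes in control liver on day 1 (vertical, log axis) and day 0 (horizontal, log axis), with 1 pooled array each. Red points are the 312 genes at least 2-fold higher and blue points the 275 genes at least 2-fold lower after adding 71 to each signal, and Cyp2b10 and Cyp2c55 stand furthest above the line of equal signals.

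The 15 largest increases were led by enzymes and carriers of drug metabolism. They were Cyp2b10, Cyp2c55, Cyp3a44, Nebl, Ces2a, Abcc4, Smpd2, Gstm3, Mpp2, Adssl1, Rrm2, Tubb2a, Prss8, St3gal6 and Pelo, with differences from 6.24 to 2.48. Set against separate arrays, those of MET KO + EGFRi, all 15 were higher on day 1 than on day 0 and 10 were at least 2-fold higher. Among all genes there, 52% were higher and 1.6% at least 2-fold higher. The 15 largest decreases were Rusc1, Mroh2a, Acot3, Rdh9, Cyba, Pithd1, Fam102a, Coro1b, C2cd5, Dnajc6, Mt1, Acot2, Nes, Tmem98 and Rbm19, with differences from -3.61 to -2.15. Of these, 9 were also lower in MET KO + EGFRi, where 48% of all genes were. At least 2-fold lower there were 5, against 1.76% of all genes.

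**Figure D2:**
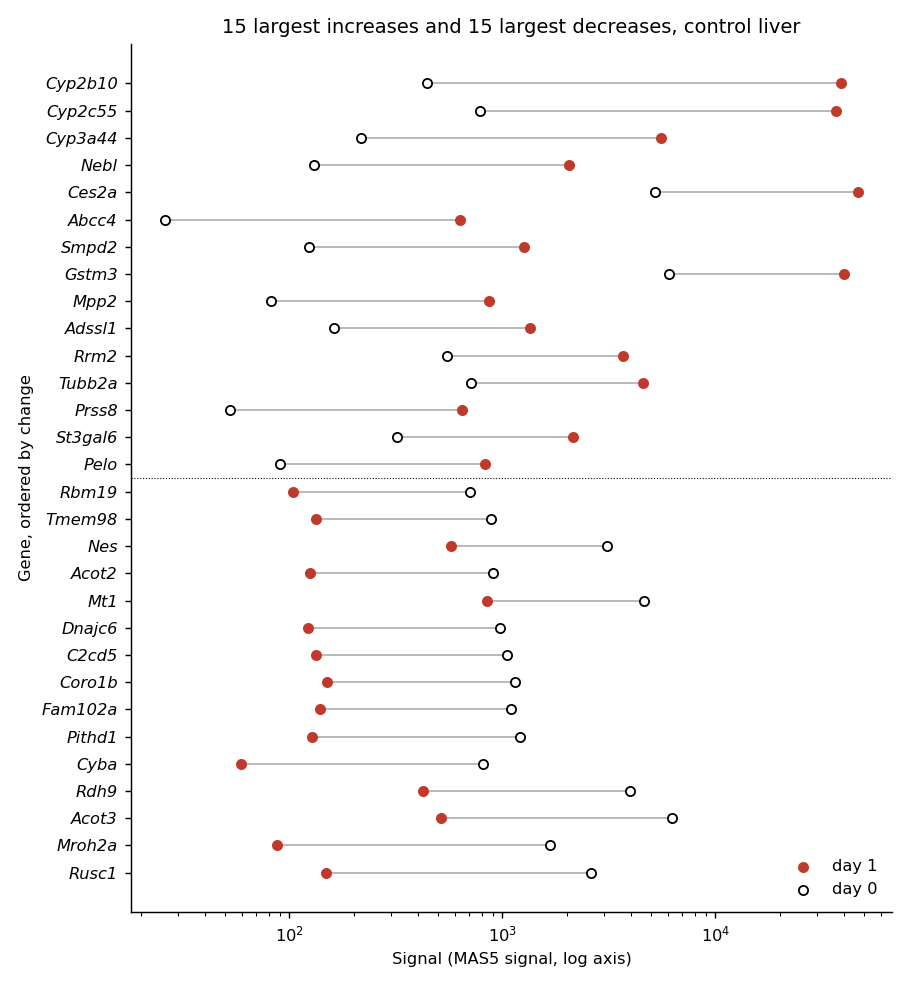
Signals on day 1 (red) and day 0 (open) of the 15 genes with the largest increase, above the dotted line, and the 15 with the largest decrease, below it, in control liver. The horizontal axis is the MAS5 signal on a log axis, 1 pooled array per point; Cyp2b10 had 38898 on day 1 and 444 on day 0.

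Phase I enzymes, which oxidise or hydrolyse foreign compounds, held the largest changes of all. Cyp2b10, the cytochrome P450 most used as a readout of CAR in mice, had a signal of 38898 on day 1 and 444 on day 0. That is 87.6 times as much and a log2 difference of 6.24. Its other probe sets had 37295 and 34638 on day 1, against 357 and 141 on day 0. Probe sets whose names end in _s_at, as the strongest of Cyp2b10 does, can also bind relatives of the gene. The induction lasted, since Cyp2b10 had 33939 on day 2 and 45578 on day 5. In MET KO + EGFRi it had 37324 on day 1 and 356 on day 0 (6.45), so day 1 stood far above day 0 in both arms.

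Cyp2c55, a Cyp2c enzyme that oxidises arachidonic acid, had 36847 on day 1 and 788 on day 0, a log2 difference of 5.43, and 23337 on day 2 and 33252 on day 5. Cyp3a44, a Cyp3a enzyme found mainly in livers of female mice, had 5544 and 217, with a difference of 4.29. Its signal was 1155 on day 2 and 205 on day 5, so the day 1 value was the highest of the 4 control arrays and day 5 lay near day 0. The carboxylesterase Ces2a had 46618 on day 1 and 5230.1 on day 0 (3.14), with 37523 on day 2 and 59664 on day 5. Ces2a thus stayed high on all 3 days after TCPOBOP, whereas Cyp3a44 was highest on day 1.

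Among the 31 phase I genes that passed the filter, of 34 with a probe set, 25 were higher on day 1 and 12 at least 2-fold higher, while 0 were at least 2-fold lower. With the 3 weaker genes included, 13 of 34 were at least 2-fold higher. The median of the 31 was 0.75, against -0.03 over all genes. The other members past 2-fold included Cyp2c54 (34781 and 8259), Cyp2c50, Cyp1a2, which metabolises caffeine, and microsomal epoxide hydrolase Ephx1, with differences of 2.06, 1.54, 1.56 and 1.11. Members of the Cyp2c and Cyp3a families are similar in sequence, and a probe set may bind several of them. Cyp2e1, which oxidises ethanol and is not known as a CAR target, had 53168 and 40354 (0.40). Across the MET KO + EGFRi arrays the same 31 genes had a median of 0.71, with 12 at least 2-fold higher and 2 lower by as much.

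CAR is known to bind paired AGGTCA-like half-sites, often in enhancers far ahead of the gene. A search of both strands for AGNTCA repeated after a gap of 4 bases, with N for any base, in the 250 bases ahead of each start and the first 50 after it, found it in 1 of 29 phase I promoters (3.45%). It was in 0 of 32 promoters of conjugating enzymes and in 39 of all 27025 promoters (0.144%). The match was in Cyp3a11, named here after its values were seen, which had 52518 on day 1 and 34017 on day 0 (0.63). Cyp3a11 encodes the main Cyp3a enzyme of mouse liver. Its promoter is shown to place the match, which is in capitals and begins 172 bases ahead of the start. The 250 bases ahead of the start are printed for this and all later promoters. This one comes from RefSeq, build GRCm38.p6, chr5:145879855-145880104, minus strand, 5' to 3'.
Cyp3a11: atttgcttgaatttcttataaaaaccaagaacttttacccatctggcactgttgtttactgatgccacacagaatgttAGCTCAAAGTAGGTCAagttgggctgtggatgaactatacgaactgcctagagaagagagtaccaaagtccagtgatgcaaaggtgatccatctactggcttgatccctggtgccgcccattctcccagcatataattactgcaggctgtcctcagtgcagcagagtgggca

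The enzymes that attach sulfate, glucuronic acid or glutathione formed the list with the highest median, 0.91 over all 35 members, each of which passed the filter. On day 1, 26 of 35 were higher, 17 at least 2-fold higher and 0 lower by as much. Glutathione transferase Gstm3 had 40114 on day 1 and 6050.3 on day 0, a difference of 2.71 on a probe set that can bind other Gstm genes. Its other probe set had a difference of 4.39. Gstm2 and Gstt3, of the same enzyme class, had 9654 and 10883 on day 1, against 2725 and 3412 on day 0.

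The sulfotransferases differed in how far each was measured. Estrogen sulfotransferase Sult1e1 had 337 on day 1 and 23.8 on day 0, and since the day 0 signal is below the added 71, its difference of 2.10 ran from 1.13 to 3.82 over the alternative settings. Sult3a1 had 5942 and 1697 (1.77) and Sult1c2 had 1057 and 278 (1.69). Thiopurine methyltransferase Tpmt (1.52, with 0.49 to 1.73 on others) and the glucuronosyltransferase Ugt2b1 (1.45) were also past 2-fold. The list had a median of 0.75 in MET KO + EGFRi livers with 12 members at least 2-fold higher, and Sult3a1 was lower there on day 1 (-0.50).

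Transporters moved less as a list, with a median of 0.17 over 19 genes and 2 at least 2-fold higher. The export pump Abcc4 had 629 on day 1 and 26.1 on day 0 (2.85), and this size depended on the pseudocount, from 1.71 to 4.59. Abcc3, which exports conjugates into the blood, had 6013 and 2342 (1.33). The bile canalicular pump Abcc2 and the uptake carrier Slco1a4, both known to respond to CAR, had differences of 0.86 and 0.97. Abcg8, which secretes sterols into bile, had -0.52.

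P450 enzymes need heme, and Alas1, the first and rate-limiting enzyme of its synthesis, had 28239.6 on day 1 and 13451 on day 0 (1.07). Its other probe set had a difference of 0.73. Ferrochelatase Fech, the last enzyme, had 6633 and 4015 (0.71). The heme-binding protein Hebp1 had 679.5 and 1546 (-1.11), and the median of all 14 heme genes was -0.051. Por, the reductase that passes electrons to P450 enzymes, was not analysed here.

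Bile acid synthesis genes had a median of 0.40 over 19 genes, with 3 at least 2-fold higher and 0 lower by as much. This median was 0.085 after quantile normalization and 0.13 with only probe sets ending in _at. Cyp7b1, which hydroxylates oxysterols, had 3447 on day 1 and 1194 on day 0 (1.48), while its other probe sets ran from -0.47 to 1.60. Nr0b2, the repressor SHP, had 1967 and 784 (1.25). The peroxisomal side-chain oxidase Acox2 had 1.09. Cyp7a1, the rate-limiting enzyme of the classical pathway, had 3967 and 5047 (-0.34), with -0.95 on its other probe set.

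Entry into the cell cycle was read by stage, since cyclin D and Myc act ahead of DNA replication and the mitotic genes follow it. Of 18 genes that drive or restrain the passage from G1 to S phase, 2 were at least 2-fold higher and the median was 0.19. The repressor E2f8 had 631 on day 1 and 79.4 on day 0 (2.22), and Myc had 303 and 36.4 (1.80). Both day 0 signals lay near or below the pseudocount, and the differences ran from 1.19 to 2.99 and from 0.98 to 3.06 over the settings. A weaker probe set of E2f8 had a difference of 0.16. Cyclin D1, Ccnd1, a known early step of the response to TCPOBOP, had 6318 and 4553 (0.47), with 0.36 and 0.77 on its other probe sets. In the other arm Ccnd1 had 3172 on day 1 and 1232 on day 0 (1.32).

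DNA replication genes were higher as a group on day 1. Of 45 genes with a probe set, 29 passed the filter, 23 of them higher and 8 at least 2-fold higher, with 10 of 45 past 2-fold when weak genes are included. The median of the 29 was 0.55. The R2 subunit of ribonucleotide reductase, Rrm2, which supplies deoxynucleotides, had 3684 on day 1 and 551 on day 0. Its difference was 2.59, and 1.44 and 2.16 on its other probe sets. Mcm2, part of the helicase that opens DNA, had 1261 and 195 (2.32), and Mcm4 and Mcm7 of the same ring had differences of 1.75 and 1.12.

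The maintenance methyltransferase Dnmt1 had 677 on day 1 and 188 on day 0 (1.53), but 0.57 as a mean of probe sets. Geminin (Gmnn), which prevents a second round of replication, had 1.36, the sliding clamp Pcna 1.12 and DNA polymerase alpha, Pola1, 1.04. On its other probe set Pola1 had only 0.21. The list had a median of 0.33 in MET KO + EGFRi livers, 2 members were at least 2-fold higher, and Dnmt1 was lower there (-0.32).

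E2F factors are known to control replication genes, and their sites were looked for as TTTCGCGC, TTTGGCGC, TTTCCCGC or TTTGCCGC on both strands of the same windows. A match was in 15 of 37 replication promoters (40.5%) and in 704 of 27025 promoters (2.6%). Of 6 replication genes past 2-fold with a promoter sequence, 3 had one, which were Dnmt1, Mcm7 and Pola1. The promoters of Mcm7 and Pola1 are shown as examples, with the match in capitals, here the reverse complement of the letters above. They lie on the minus strand at chr5:138171884-138172133 and chrX:93632156-93632405 (RefSeq, GRCm38.p6), and the matches begin 165 and 138 bases ahead of the start. Mcm7 has 2 listed starts, and the other window had no match.
Mcm7: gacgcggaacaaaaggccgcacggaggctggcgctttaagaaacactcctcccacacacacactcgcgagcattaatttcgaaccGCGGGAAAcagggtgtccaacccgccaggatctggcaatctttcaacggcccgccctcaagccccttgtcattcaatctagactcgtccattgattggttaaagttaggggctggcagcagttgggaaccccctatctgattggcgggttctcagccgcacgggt
Pola1: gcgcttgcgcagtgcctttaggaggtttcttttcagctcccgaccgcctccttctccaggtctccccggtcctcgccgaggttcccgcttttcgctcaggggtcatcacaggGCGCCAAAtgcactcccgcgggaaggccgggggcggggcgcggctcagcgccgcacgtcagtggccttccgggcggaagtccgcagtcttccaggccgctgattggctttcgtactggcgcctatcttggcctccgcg

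Genes of the G2 phase and mitosis followed the same direction, with a smaller median of 0.39 over 33 genes, of which 27 were higher and 8 at least 2-fold higher. With weak genes included, 13 of 50 were past 2-fold. The mitotic kinase Cdk1 had 784 on day 1 and 95.0 on day 0 (2.36). Cyclin B2, Ccnb2, had 424 and 40.7 (2.15). Both genes had day 0 signals near or below the pseudocount. Over the settings, Cdk1 ran from 1.61 to 3.04 and Ccnb2 from 1.25 to 3.38. Cdc20, which starts the exit from mitosis, had 1469.9 and 283 (2.12), with 868 and 455 on another probe set (0.84).

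The values of day 2 stood above those of day 1 for these 3 genes, with signals of 1421 for Cdk1, 2030.4 for Ccnb2 and 2840.5 for Cdc20. On day 5 they were 317, 269 and 816. Rrm2, by comparison, had 3857 on day 2, close to day 1, and 905 on day 5. The cytokinesis gene Ect2 (1.86, from 1.18 to 2.53 over the settings), the spindle checkpoint gene Mad2l1 (1.39) and Prc1 (1.29) were also past 2-fold. So were the kinetochore gene Spc24 (1.27) and the condensin gene Ncaph (1.24), the last with 0.20 on its other probe set. The proliferation marker Mki67 had 447 and 192 (0.98). The mitotic factor Foxm1 had 959 and 1122 (-0.21) on its strongest probe set, while its weaker ones went both ways. The MET KO + EGFRi median was 0.34, with 4 members at least 2-fold higher.

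Many mitotic promoters hold the cell cycle homology region TTTGAA. It was in 27 of 41 mitotic promoters (65.9%) against 5466 of 27025 (20.2%), and in 5 of the 7 past 2-fold that have a promoter sequence. CCAAT boxes were in 30 of 41 (73.2%) against 11096 of 27025 (41.1%). Cdk1 and Cdc20 are shown with TTTGAA in capitals, beginning 71 and 15 bases ahead of the start in Cdk1 and 18 in Cdc20. Both lie on the minus strand of GRCm38.p6 in RefSeq, at chr10:69352913-69353162 and chr4:118437344-118437593.
Cdk1: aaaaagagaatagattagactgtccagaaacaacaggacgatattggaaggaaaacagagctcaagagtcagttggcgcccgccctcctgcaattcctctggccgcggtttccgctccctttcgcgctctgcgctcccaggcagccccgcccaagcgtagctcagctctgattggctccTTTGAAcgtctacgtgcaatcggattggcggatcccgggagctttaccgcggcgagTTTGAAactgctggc
Cdc20: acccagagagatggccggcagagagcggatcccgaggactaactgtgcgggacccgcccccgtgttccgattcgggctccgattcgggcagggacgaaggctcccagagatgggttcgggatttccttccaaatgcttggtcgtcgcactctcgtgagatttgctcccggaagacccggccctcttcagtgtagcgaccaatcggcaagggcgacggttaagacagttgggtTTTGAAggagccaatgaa

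Brakes of the cell cycle showed no common direction, with a median of 0.027 over 22 genes. Gadd45b, a known partner of CAR in mouse liver, had 1006 on day 1 and 262 on day 0 (1.69), and its other probe sets gave -0.25 and 3.74. The stress gene Gadd45a had 738 and 174 (1.73). Gadd45g had 10.8 and 164, both weak (-1.53). The CDK inhibitor Cdkn1a (-0.10) and Mdm2, which degrades p53 and is a known CAR target (-0.0055), were close to 0 on this scale. Foxo3, a factor that restrains growth, had -0.26 on its strongest probe set and -1.20 and -0.75 on the others.

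Receptors and ligands of the MET and EGFR families had a median of -0.14 over 18 genes. Met had 926 on day 1 and 1444 on day 0 in control (-0.60), against 1049 and 1502 in MET KO + EGFRi. Its other probe set had 561 and 786 in control, against 532 and 640 in MET KO + EGFRi. The stronger probe set was thus no lower in MET KO + EGFRi and does not show the deletion, and whether either probe set lies in the deleted part is not given. Its ligand Hgf had 224 and 508 (-0.97), and the HGF-activating protease Hgfac 4491 and 8473 (-0.91). Egfr had 3539 and 3018 (0.23) on its strongest probe set, with -0.53 to 0.27 on the others. The EGFR relative Erbb3 had 4251 and 2086 (1.00) and was the only one of the 18 past 2-fold. Erbb3 lay at the threshold, with 0.62 to 1.07 over the settings and 0.25 on a weaker probe set. Of the 22 members with a probe set, the weaker Erbb2, named after its values were seen, was also past 2-fold, with 305 and 53.8 (1.59). Immediate-early and ERK feedback genes had a median of -0.034 over 27 genes, with 0 at least 2-fold higher. The largest positive difference among them was that of the phosphatase Dusp6 (0.82). Ribosome biogenesis genes had a median of -0.025, and 0 of 29 were past 2-fold in either direction.

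Nr1i3, the gene of CAR itself, had 2065 on day 1 and 3141 on day 0 (-0.59). The fatty acid receptor Ppara had 2280.3 and 3732 (-0.69), with -1.62 on another probe set, and the aryl hydrocarbon receptor Ahr 2918 and 1046 (1.42), with 0.20 on its other probe set. The median of 24 hepatic nuclear receptors and transcription factors was -0.03. Cebpd, a factor of the acute phase, was weak on both days, with 110.5 and 324 (-1.12).

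**Figure D3:**
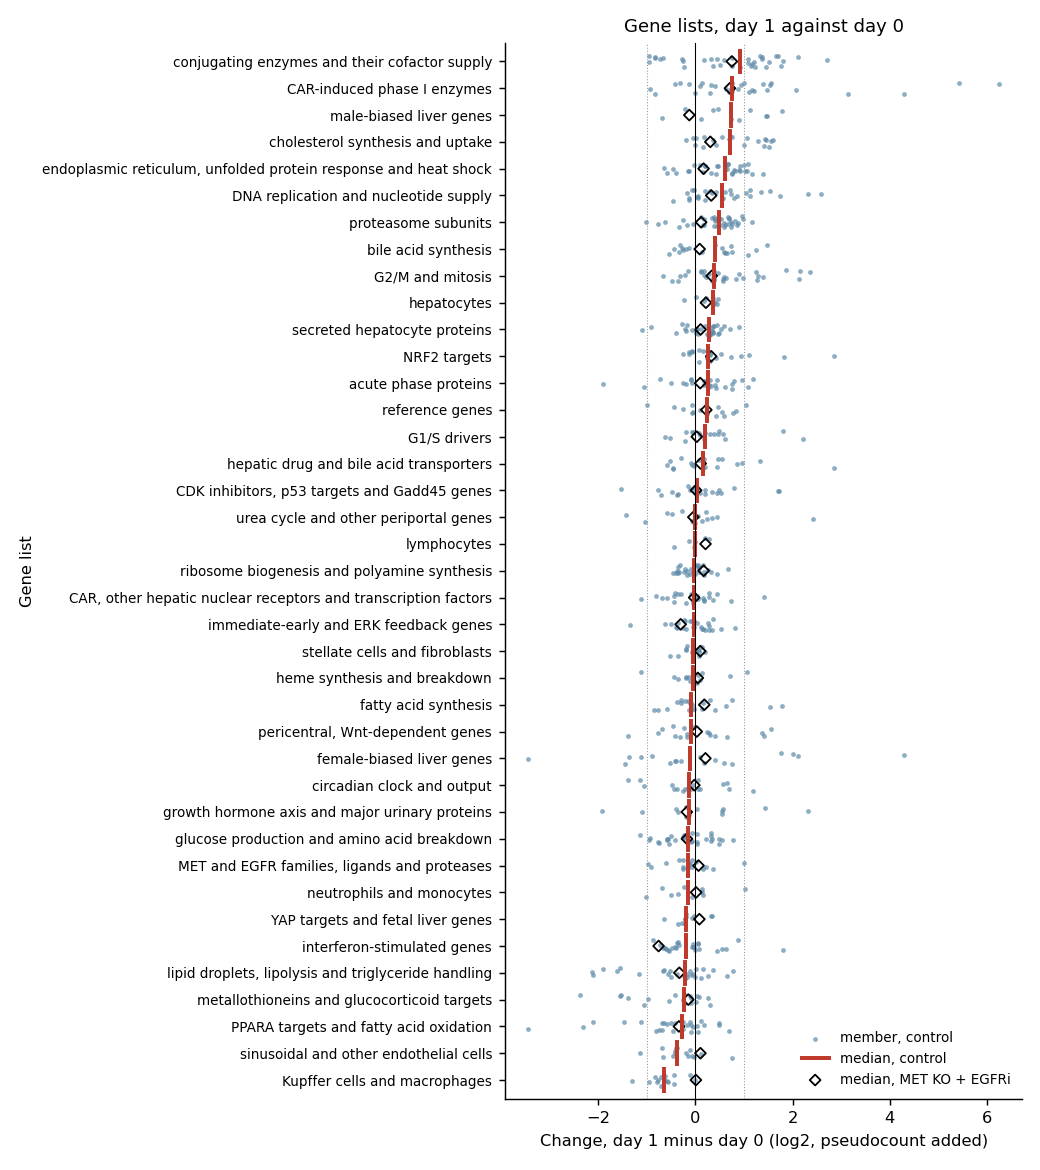
Log2 difference of day 1 over day 0 for each gene that passed the filter, by gene list, in control liver (blue points), with the list's median in control (red bar) and in MET KO + EGFRi liver (open diamond); dotted lines mark 2-fold. Conjugating enzymes and CAR-induced phase I enzymes have the highest control medians (0.91 and 0.75), and Kupffer cells and macrophages the lowest (-0.65).

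Outside drug metabolism, cholesterol synthesis had the highest median of the metabolic pathways on day 1. Of 21 genes that passed the filter, 18 were higher and 9 at least 2-fold higher, with 0 at least 2-fold lower and a median of 0.72. Hmgcs1, which makes HMG-CoA, had 24242 on day 1 and 8797 on day 0 (1.46), and its 4 other probe sets gave 1.19 to 1.53. Its signal was 14679.7 on day 2 and 21571 on day 5, below day 1 but above day 0. The lanosterol demethylase Cyp51 had 5095 and 1682 (1.56), with 0.17 and 1.23 on its other probe sets. The squalene epoxidase Sqle had 8521 and 3109.9 (1.43).

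Of the other enzymes past 2-fold, Msmo1 had a difference of 1.53, Idi1 of 1.42, Fdft1 of 1.28 and Lss of 1.06. Other probe sets gave 0.89 for Msmo1, 1.20 for Idi1, and 0.42 and 0.89 for Lss. Those of Fdft1 went both ways, from -0.79 to 1.07. Insig2, which holds the sterol-sensing SCAP protein in the endoplasmic reticulum, had 12368 and 4048 (1.59), with 1.51 and 1.60 on its other probe sets. The MET KO + EGFRi median was 0.31, 20 of 21 genes were higher on day 1 and 2 were at least 2-fold higher. Hmgcs1 had 11002 on day 1 and 8452 on day 0 there (0.38).

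The sterol element TCACNCCAC, bound by SREBP factors, was in 1 of 18 cholesterol promoters (5.56%) and in 388 of 27025 (1.44%). The 1 match was in Hmgcs1, whose promoter is shown with the match in capitals, 137 bases ahead of the start. It lies at chr13:119690101-119690350 on the plus strand (RefSeq, GRCm38.p6).
Hmgcs1: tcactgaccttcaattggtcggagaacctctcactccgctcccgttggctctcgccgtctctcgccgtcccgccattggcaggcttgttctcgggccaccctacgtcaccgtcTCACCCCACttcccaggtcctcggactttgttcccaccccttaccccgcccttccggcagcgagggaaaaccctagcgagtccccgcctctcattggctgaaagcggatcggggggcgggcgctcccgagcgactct

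Genes of protein folding in the endoplasmic reticulum had a median of 0.62 over 34 genes, with 27 higher, 6 at least 2-fold higher and 0 lower by as much. The chaperone BiP, Hspa5, had 11340.5 on day 1 and 4994 on day 0 (1.17), and its other probe sets gave 0.62 and 1.14. Day 2 had 10146 and day 5 11538. Its co-chaperone Dnajb11 had 2427 and 876 (1.40). The translocon subunit Sec61b (1.08), the disulfide isomerase Pdia6 (1.03) and the transcription factor Xbp1 (1.07) were past 2-fold, with 0.34 to 0.69 on other probe sets of Xbp1. The other probe set of Pdia6 went the opposite way (-0.62). The list also holds cytosolic heat shock genes, of which Hsp90aa1 was just past 2-fold (1.00), with -1.21 to 0.87 on other probe sets. In the other arm, where Hspa5 had 13011 on day 1 and 8219.8 on day 0, the median was 0.17.

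The endoplasmic reticulum stress element, CCAAT and CCACG with 9 bases between them, was in 7 of 29 promoters of this list (24.1%) and in 37 of 27025 (0.137%). Every match also holds a CCAAT box, which 21 of the 29 promoters had (72.4%). Of 5 genes past 2-fold with a promoter sequence, Hspa5 and Pdia6 had the full element, and both are shown with it in capitals, 65 and 98 bases ahead of the start. They lie on the plus strand at chr2:34771840-34772089 and chr12:17266339-17266588 (RefSeq, GRCm38.p6). A match of this or any other motif describes letters in a window and not a bound site.
Hspa5: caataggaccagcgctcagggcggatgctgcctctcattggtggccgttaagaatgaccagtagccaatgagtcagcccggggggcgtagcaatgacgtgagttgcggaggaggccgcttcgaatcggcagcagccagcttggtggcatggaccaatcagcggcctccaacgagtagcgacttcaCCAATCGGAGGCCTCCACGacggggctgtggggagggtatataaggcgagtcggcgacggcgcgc
Pdia6: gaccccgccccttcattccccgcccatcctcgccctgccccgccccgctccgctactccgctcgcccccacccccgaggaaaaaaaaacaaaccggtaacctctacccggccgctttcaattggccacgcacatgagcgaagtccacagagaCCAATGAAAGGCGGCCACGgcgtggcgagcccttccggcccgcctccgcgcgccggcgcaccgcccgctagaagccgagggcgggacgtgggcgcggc

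**Figure D4:**
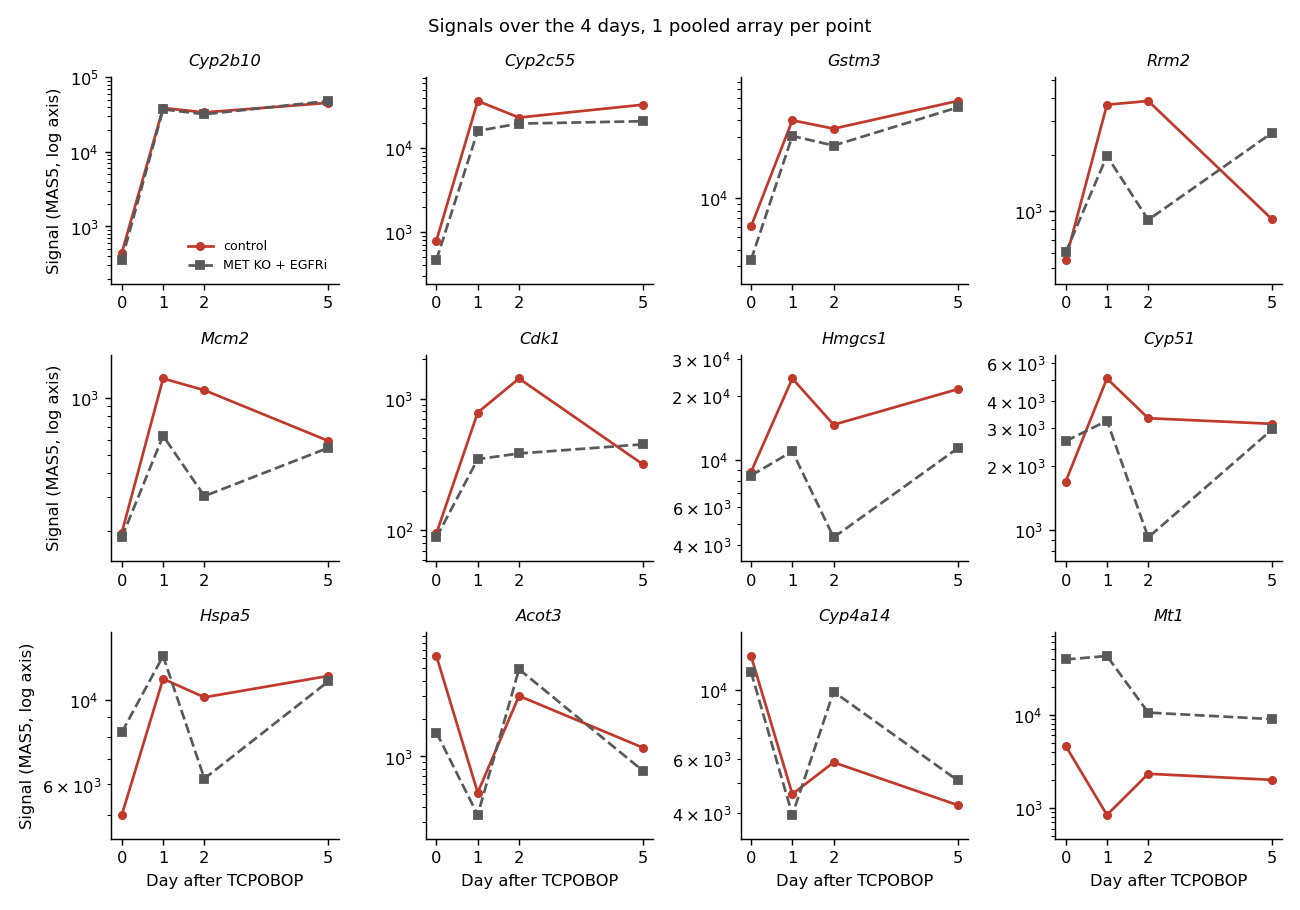
Signals of 12 genes (log axes, a scale of its own per panel) on days 0, 1, 2 and 5 in control liver (red circles, solid line) and MET KO + EGFRi liver (grey squares, dashed line), 1 pooled array per point. In control, Cdk1 has 784 on day 1 and 1421 on day 2, while Hmgcs1, Cyp51 and Mcm2 have their highest signal on day 1 and Acot3 its lowest.

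Fatty acid oxidation genes, most of them targets of PPARA, were lower on day 1. Of 30 genes 23 were lower, 5 at least 2-fold lower and 0 at least 2-fold higher, with a median of -0.27. The acyl-CoA thioesterase Acot3, which frees long-chain fatty acids in peroxisomes, had 516 on day 1 and 6269.9 on day 0 (-3.43), and 3024 on day 2 and 1175 on day 5. Acot3 was thus lowest on day 1 but did not stay there. Acot1 had 203 and 1108 (-2.11) and Acot2 126 and 899.8 (-2.30), although a weaker probe set of Acot2 gave 0.25. The fatty acid hydroxylase Cyp4a14 had 4606 and 12919 (-1.47). Acot genes are alike in sequence and some of these probe sets can bind more than 1 of them. The MET KO + EGFRi median was -0.34 with 5 genes at least 2-fold lower, among them Acot3 (-1.97), Acot2 (-1.95) and Cyp4a14 (-1.52).

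Lipid droplet and triglyceride genes had a median of -0.20, and 6 of 27 were at least 2-fold lower and 0 at least 2-fold higher. The fatty acid carrier Cd36 had 268 on day 1 and 1382 on day 0 (-2.10), with -1.27 and -0.61 on its other probe sets. The lipolysis inhibitor G0s2 had 619.5 and 2034 (-1.61) and the phosphatidate phosphatase Lpin1 1630.4 and 4916 (-1.55). Fitm1 (-2.12), the droplet coat gene Plin4 (-1.89) and lipoprotein lipase Lpl (-1.15) completed the 6. The MET KO + EGFRi median was -0.33, below that of control, with 17 of 27 lower and 1 at least 2-fold lower.

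Fatty acid synthesis genes had a median of -0.082, and the 2 past 2-fold were higher. They were the elongase Elovl3, with 1806 on day 1 and 471 on day 0 (1.79), and the lipase-like gene Pnpla3, with 1871 and 602 (1.53). Genes of glucose production and amino acid breakdown had a median of -0.14, with Pck1 at 7802 and 11656 (-0.57) and G6pc at 6499.5 and 9579 (-0.55). The insulin- and fasting-responsive binding protein Igfbp1 had 345 and 838 (-1.13). Apoa4, an apolipoprotein, had 23579 and 4363 (2.42), with 2.59 on another probe set. In the MET KO + EGFRi arm Apoa4 had 8916 on day 1 and 7987 on day 0 (0.16).

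Many of these metabolic genes also follow the hour of the day and feeding. Clock genes had a median of -0.12 over 19 genes in control, with Clock at least 2-fold higher (1.19) and Cry2 (-1.37), Usp2 (-1.14) and Per1 (-1.05) at least 2-fold lower. Other probe sets gave 0.40 to 0.81 for Clock and -0.34 for Usp2. Over the settings Clock ran from 0.72 to 1.67, Cry2 from -1.79 to -0.90 and Per1 from -1.17 to -0.85. The repressor Nr1d1 had 2012 on day 1 and 1262 on day 0 (0.64). The part of harvest time and food intake in the lipid, glucose and metallothionein values was not tested.

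Metallothioneins and glucocorticoid targets had a median of -0.24 over 19 genes, with 5 at least 2-fold lower. The median was -0.50 after quantile normalization. Mt1, a protein that binds zinc and is induced by metals and glucocorticoids, had 843 on day 1 and 4632 on day 0 (-2.36), with 2328 on day 2 and 2004 on day 5. Mt2 had 978 and 2679.6 (-1.39). The glucocorticoid target Tsc22d3 had 1789 and 3552 (-0.96). In the MET KO + EGFRi arm the same Mt1 probe set was far above control on both days, with 42558 on day 1 and 39104 on day 0 (0.12), among the brightest values of those arrays. A weaker Mt1 probe set had 38.4 and 296 in control (-1.74), against 576 and 2216 in MET KO + EGFRi (-1.82). On that probe set day 1 was lower than day 0 in both arms.

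Acute phase proteins, which the liver secretes in inflammation, had a median of 0.26 over 28 genes as deposited and -0.057 after quantile normalization. The protease inhibitor Serpina3n had 1139.6 on day 1 and 4460.0 on day 0 (-1.90), and Saa3 635 and 1388 (-1.05). Serum amyloid P, Apcs, had 14229.6 and 6256 (1.18), and Orm3 1.08. The median of 34 secreted hepatocyte proteins was 0.27 as deposited and -0.12 after quantile normalization. The sign of both medians therefore rests on the scaling of the arrays.

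Major urinary proteins and sex-biased genes differed between the 2 arrays as well. Mup10 had 15723 on day 1 and 3099.5 on day 0 (2.32), on a gene whose many relatives can bind the same probes. Its signal was 6501 on day 2 and 2552 on day 5. Of 11 genes with male-biased expression in mouse liver, 4 were at least 2-fold higher, with a median of 0.73, which was 0.41 without the filter and 0.46 with only probe sets ending in _at. These 4 were Elovl3, Cyp7b1, Ugt2b1 and C6 (1.13). Among 18 female-biased genes, 4 gained at least 2-fold and 4 lost as much. The higher ones were Cyp3a44, Sult1e1, Prom1 and Sult3a1, and the lower ones were Acot3, Fmo2 (-1.45), the transcription factor Cux2 (-1.36) and Rtn4 (-1.12). Other probe sets of Cux2 and Rtn4 reached 0.57 and 0.44.

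Markers of other liver cells were read beside these lists. Of 16 markers of Kupffer cells and macrophages, 15 had a lower signal on day 1, with a median of -0.65 and 1 at least 2-fold lower. Their summed signal was 19842 on day 1 and 30822 on day 0 in control, against 36036 and 34927 in MET KO + EGFRi. C1qb, a subunit of complement C1q made by macrophages, had 712 on day 1 and 1866 on day 0 (-1.31), and its other probe sets gave -1.22 and -1.20. Lysozyme, Lyz2, had 1281 and 2534 (-0.95), and the scavenger receptor Cd163 282 and 560.2 (-0.84). The general macrophage marker Adgre1, named after its values were seen, had 1659 and 1658 and was the exception. In a pool of whole livers, fewer cells of a type and less of the RNA per cell cannot be told apart.

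Endothelial markers had a median of -0.38 over 15 genes, 13 of them lower, and -0.12 when all arrays were scaled to 1 median. Their summed signal was 13469.9 on day 1 and 16280.3 on day 0. Stellate cell markers had a median of -0.05, neutrophil and monocyte markers of -0.15 and lymphocyte markers of -0.014. The 3 erythroid markers were all lower (median -0.21), as were the 3 of cholangiocytes (-0.18), and 4 of pancreas, adipose tissue and muscle had -0.076. None of these markers was listed at 0. Their part in the lower signals of other genes was not tested.

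Other genes among the 15 largest increases have no place in the lists. Nebl, an actin-binding protein, had 2048 on day 1 and 131 on day 0 (3.39), but 1.15 as a mean of its probe sets. The neutral sphingomyelinase Smpd2 had 1258 and 123 (2.78), with 1732 on day 2 and 1776 on day 5. Smpd2 was therefore as high on the later days, and it was also higher in MET KO + EGFRi (2.63).

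Adssl1, an enzyme of AMP synthesis, had 1344 on day 1 and 161 on day 0 (2.61). The membrane scaffold gene Mpp2 had 864 and 82.1 (2.61), the membrane protease gene Prss8 646 and 52.5 (2.54), and Pelo, which rescues stalled ribosomes, 825 and 90.0 (2.48). All 4 were weak on day 0, and in MET KO + EGFRi their differences were 0.97, 0.69, 0.66 and 0.17.

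Among the largest decreases outside the lists, Rdh9, a retinol dehydrogenase, had 424 on day 1 and 3954 on day 0 (-3.02). It was also low on day 2 (727) and day 5 (376), and in MET KO + EGFRi it had 316 on day 1 and 3922 on day 0 (-3.37). Cyba, a subunit of the NADPH oxidase of phagocytes, had 59.0 and 815 (-2.77). The actin regulator Coro1b had 150.0 and 1139.7 (-2.45), and 759 and 1206 on days 2 and 5. Thus Coro1b was low on day 1 and back near day 0 by day 5.

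C2cd5, a gene of vesicle transport, had 134 on day 1 and 1048 on day 0, with a difference of only -0.33 on another probe set, and the ribosomal RNA processing gene Rbm19 had 104 and 704. These 2 had differences of -2.45 and -2.15 in control, against 0.01 and 0.28 in MET KO + EGFRi. Pithd1 had 128 and 1208, Fam102a 139 and 1096, and Dnajc6, which strips clathrin from vesicles, 122 and 974. Of these 5, only Pithd1 was also at least 2-fold lower in MET KO + EGFRi (-1.72). Weaker probe sets below the filter gave 0.040 and -0.046 for Pithd1 in control, -0.25 to 0.74 for Dnajc6 and -1.49 for Fam102a.

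Several of the largest single changes rested on 1 probe set. Tubb2a had 4554 on day 1 and 710.0 on day 0 (2.57), with -0.46 on a weaker probe set. The sialyltransferase gene St3gal6 had 2138 and 319 (2.50), but all 4 of its other probe sets were lower on day 1, from -0.70 to -0.033. Rusc1 had 148 on day 1 and 2617 on day 0 (-3.61), and its 4 other probe sets gave -0.62 to -0.0096. Nestin, Nes, had 576 and 3095 (-2.29), with -0.082 and 0.061 on others, and Mroh2a had 87.8 and 1668 (-3.45), with -0.021. Both returned near the day 0 signal, with 1424 and 2028 for Mroh2a and 3398 and 3138 for Nes on days 2 and 5.

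Over all genes past 2-fold, 107 of the higher genes had another probe set that passed the filter. The mean of those others was higher on day 1 for 85 of them (79.4%) and by 2-fold or more for 28 (26.2%). For the lower genes, 79 had such probe sets, of which 55 were lower (69.6%), 15 of them by 2-fold or more (19%). The size of a change past 2-fold was therefore often carried by the strongest probe set alone.

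The MET KO + EGFRi arrays of days 1 and 0 share no array with control and give a second reading of the first day under another condition. It had 194 genes that gained 2-fold or more (1.6%) and 213 that lost as much (1.76%). Of the 312 genes past 2-fold higher in control, 71 were also at least 2-fold higher in MET KO + EGFRi, which is 22.8% of the control list and 36.6% of the other. In all, 231 of the 312 (74%) were higher there, where 52% of all genes were. Their median was 1.35 in control and 0.39 in MET KO + EGFRi. Of the 275 lower genes, 38 were also at least 2-fold lower, 13.8% of the control list and 17.8% of the other, and 167 (60.7%) were lower, where 48% of all genes were. Their median was -1.30 in control and -0.16 in MET KO + EGFRi. Both sets were picked by the size of their change in control, which by itself makes the control medians the larger ones. These medians therefore do not measure how the strength of the response differed between the arms. Over all genes the median absolute difference was 0.26 in control and 0.22 in MET KO + EGFRi. Across the 12112 genes, the changes of the 2 arms had a Pearson r of 0.27 and a Spearman rho of 0.19, given as a description since genes are not independent.

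**Figure D5:**
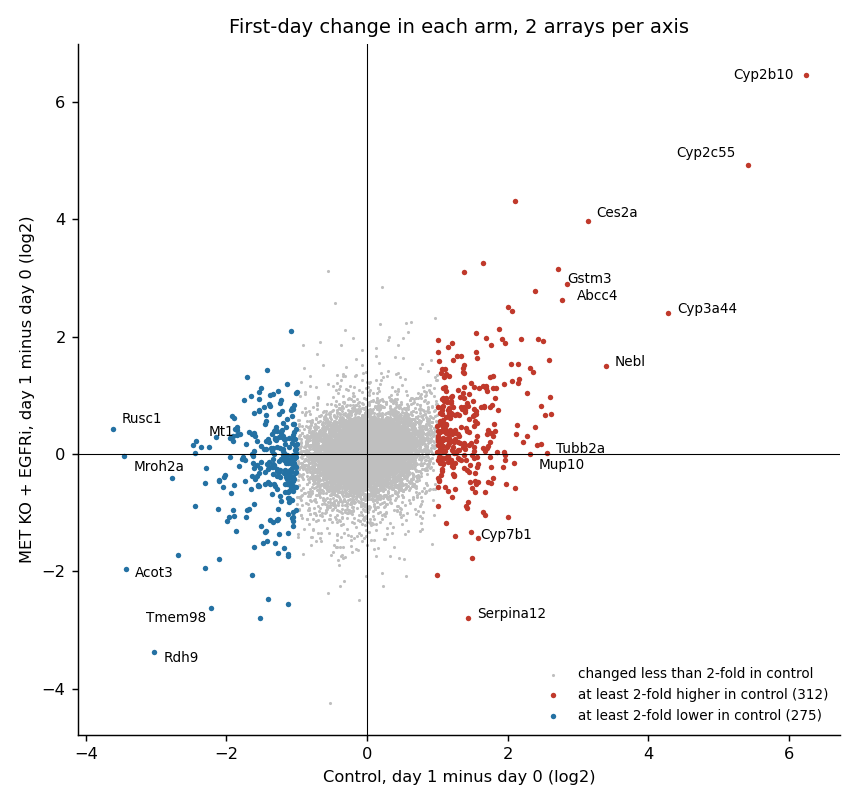
Log2 difference of day 1 over day 0 for 12112 genes in control liver (horizontal) and MET KO + EGFRi liver (vertical), from 2 arrays per axis. Red and blue points are the 312 and 275 genes at least 2-fold higher and lower in control; Cyp2b10, Cyp2c55 and Ces2a lie far out in both arms, while Tubb2a and Mroh2a lie near 0 in MET KO + EGFRi.

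A test was possible only with both arms together. limma, fitted with arm and day as additive terms over all 8 arrays, compared day 1 with day 0 and took the spread from how the arms differ in their course over days. It called 14 genes higher (0.116%) and 1 lower (0.00826%) at an adjusted p under 0.05, with 543 higher and 380 lower at an unadjusted p under 0.05. Cyp2b10 rose by 6.35 on the log2 scale, with a standard error of 0.18 and an adjusted p of 7.04e-06. Cyp2c55 rose by 5.18 (adjusted p = 0.000147 by limma). These 2 genes were called in all 8 fits that left out 1 array.

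All 15 called genes had the same direction in both arms, which the fit itself favours, because genes that differ between arms have a larger spread. The other genes that rose in this fit were Ces2a (limma's adjusted p = 0.00334), Gstm3 (0.00334), 4931406C07Rik (0.0139), Prom1 (0.0217), 1700067K01Rik (0.0217), Abcc4 (0.0327), and Cyp2c50, Cyp2c54, Lect2, Nup205, Papss2 and Timm8a1, each with 0.048 or 0.0479. Papss2, 4931406C07Rik and 1700067K01Rik are named because they were called. Papss2 supplies the sulfate donor for sulfotransferases and had 17126 on day 1 and 6561 on day 0. Nup205, a scaffold of the nuclear pore, had 1397 and 315 (1.93). Prom1 (CD133) had 2588 and 590.3 (2.01). The membrane protein gene Tmem98 fell, with 134 on day 1 and 881 on day 0 in control, against 66.4 and 773 in MET KO + EGFRi (limma's adjusted p = 0.0086).

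With 1 array left out the fit called 2 to 13 genes higher and 0 to 2 lower. It called 6 higher without control day 0, 2 without control day 1, 5 without control day 5, 3 without MET KO + EGFRi day 0, 2 without MET KO + EGFRi day 1 and 5 without MET KO + EGFRi day 5. Tmem98 and 4931406C07Rik were called in 4 of the 8 fits, Ces2a in 6, Gstm3 in 5, and Lect2, Papss2 and Timm8a1 in 0.

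Whether control responded differently from MET KO + EGFRi on day 1 was tested with limma as the difference of the 2 responses. This fit had 1 residual degree of freedom and called 0 genes, with 182 more positive and 189 more negative in control at an unadjusted p under 0.05. The smallest adjusted p was 0.259, for Rusc1. With the filter at the upper quartile Rusc1 was called (limma's adjusted p = 0.0147), on the probe set that its other 4 do not match in size. Cyp7b1 differed between days by 1.48 in control against -1.33 in MET KO + EGFRi, and the adipokine gene Serpina12 by 1.44 against -2.79, both with an adjusted p of 0.788 for the difference by limma. A difference between arms is therefore given here for no gene as tested.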

How the data were processed

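Gene expression was measured on Affymetrix mouse arrays, 1 pooled array per arm and day, labelled from 6 µg of RNA. The deposited intensity values are MAS5 signals, per the submitters' processing notes, whose version and detection calls are not given in the sources used here. On each array the mean after trimming 2 percent at either end is 500.

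From these, 64 control probe sets were left out, and 34945 of 45037 others had 1 gene in the platform table (932 several, 9160 not listed). Of 18193 genes, 12112 had a mean log2 signal of at least 8.24. Day 1 against day 0 in 1 arm was described by fold, without a test, and the number of arrays limits precision. limma 3.58.1 (R 4.3.3) with a variance trend gave Benjamini-Hochberg adjusted p-values, from 3 residual degrees of freedom for both arms together and 1 for their difference. For both arms together, the spread is how far the arms differ in their course over days, since day is a term of the fit. For the difference of the arms, it is how far the gap between arms changes among the later days. Neither is a spread between replicate pools. The fits were run on simulated data with changes added to independent noise on each array. Such data cannot show whether the noise of the real arrays behaves in that way. Alternatives changed the pseudocount, filter, scaling, choice of probe set, fold threshold and variance trend, or left out 1 array.

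The 42 gene lists and all comparisons were chosen with earlier results of these data known. Genes named are the 15 largest changes each way among genes whose higher signal reached its array's upper quartile, up to 8 members per list, up to 10 per fit and direction, and genes central to the study. A few others are named where a count or a motif singled them out.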

Additional observations from a re-analysis of the deposited data

How the results depend on the processing

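No paired analysis was possible because each group has 1 array and the labels give no replicate numbers. The count of genes at least 2-fold higher in control was 312, and was 192 with the median as pseudocount, 195 with the mean of probe sets and 540 without a filter. At 1.5-fold and 3-fold there were 957 and 89. The 275 lower genes became 127, 174 and 610 in the same settings, 164 with the filter at the upper quartile, and 1019 and 71 at the other folds. The 71 genes past 2-fold higher in both arms became 45 with the median as pseudocount, and the 38 lower ones were 16 there, 21 with the mean of probe sets and 71 without a filter. limma's 14 called higher became 7 without a pseudocount, 4 without a filter, 24 with the filter at the upper quartile, 8 with the mean of probe sets and 7 without a variance trend. Its 1 called lower became 0 without a filter, 3 with the filter at the upper quartile, 2 with the mean of probe sets and 2 without a trend. Leaving out 1 array gave 2 to 13 called higher and 0 to 2 called lower. The difference between arms had 1 called gene with the filter at the upper quartile and 0 otherwise.

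Of the medians of 42 lists, 15 changed sign in at least 1 setting, 12 of them with a reported median of 0.24 or less in size. The other 3 changed sign after quantile normalization, to -0.057 for acute phase proteins, -0.12 for secreted hepatocyte proteins and -0.027 for hepatocyte markers. Quantile normalization gave 0.085 for bile acid synthesis and -0.50 for metallothioneins. With only probe sets ending in _at, bile acid synthesis had 0.13, male-biased genes 0.46 and reference genes -0.033, and without a filter male-biased genes had 0.41. Endothelial markers had -0.12 with arrays scaled to 1 median. The cause of these shifts was not tested. With only _at probe sets, which reads another probe set, 11 of 297 named genes changed sign. The 4 of them that were past 2-fold had 0.23 for Bcl6, -0.033 for Pgk1, -0.30 for St3gal6 and -0.46 for Tubb2a. Of 146 named genes past 2-fold, 80 stayed past 2-fold in every setting that gave a value.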

Other observations

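Proteasome subunits had a median log2 difference of 0.49 over 37 genes in control on day 1, 30 of them higher. Past 2-fold were 1 higher and 1 lower, 2.7% each, near the 2.58% and 2.27% of all genes. The base ATPase Psmc4 had 2304 on day 1 and 992 on day 0 (1.16), and the lid subunits Psmd12 and Psmd11 had 0.98 and 0.95. The 3 catalytic subunits of the immunoproteasome, which interferon induces, were lower, with Psmb10 at 658 and 1397 (-1.01), Psmb9 at -0.77 and Psmb8 at -0.61. In MET KO + EGFRi the median was 0.12. Interferon-stimulated genes had a median of -0.20 over 26 genes in control, 18 of them lower and 0 at least 2-fold lower. In MET KO + EGFRi all 26 were lower on day 1, with a median of -0.75 and 11 at least 2-fold lower. Irf7, a factor that amplifies the interferon response, had 1472 and 2731 in control (-0.86), and the antiviral synthetase Oas3 had 674 and 144 (1.80).

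Antioxidant genes controlled by NRF2 had a median of 0.27 over 20 genes, and 3 were at least 2-fold higher. They were Abcc4, Ephx1 and the growth inhibitor Osgin1, with 3207 on day 1 and 857 on day 0 (1.82). Nqo1, often used as a readout of NRF2, had 601 and 472 (0.31). Pericentral genes had a median of -0.10 over 18 genes, with 3 at least 2-fold higher and 1 lower by as much. The glutamate carrier Slc1a2 had 655 and 1819 (-1.38), but its other probe sets ran from -0.57 to 1.18. The secreted protein gene Lect2 had 8747 and 3346 (1.37). Periportal genes had a median of -0.0058 over 15 genes, with Etnppl, a phospholyase, at 1446 and 4010.3 (-1.43, but -0.13 on another probe set). Growth hormone axis and urinary protein genes had -0.13 over 13 genes, with Igfals, which carries IGF1 in the blood, at 1573 and 3456 (-1.10). YAP targets and fetal liver genes had -0.20 over 12 genes, and 0 were past 2-fold. Genes often used as references had 0.24 over 16 genes, with Pgk1 at 1.04, which was -0.033 with only _at probe sets.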
